A study of Homo sapiens with 12 samples.

Results

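The 42 genes described here encode the proteins that load, fire and copy replication origins, and they were followed as RNA in a human bronchial epithelial cell line carrying 3 forms of EGFR at 2 oxygen levels. They were taken by name, as every probe annotated to the listed symbols, and sorted by step: 9 genes of origin licensing, 6 of origin firing, 12 subunits of the replicative polymerases, 10 of the sliding clamp and lagging strand, and 5 of single-strand binding and chromatin assembly. The genes had 63 probes, of which 56 were detected on at least 2 of the 12 arrays. That left 41 of the 42 genes measured, among 11918 genes measured in all; the remaining gene, GINS1, a subunit of the GINS complex, was not detected on any array. Detection meant a signal over percentile 99 of the noise peak of the array in question.

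Origins are licensed in G1, when the origin recognition complex (ORC1 to ORC6), CDC6 and CDT1 load the MCM helicase, and geminin (GMNN) holds CDT1 back afterwards. In S phase CDC45 and the GINS complex turn the loaded helicase on, polymerase alpha with primase starts each strand, polymerase epsilon extends the leading strand and polymerase delta the lagging strand. Replication factor C (RFC1 to RFC5) loads the PCNA clamp that tethers the polymerases, FEN1 and LIG1 finish Okazaki fragments, RPA1 to RPA3 coat single-stranded DNA, and CHAF1A and CHAF1B put histones on the new DNA. Many of these genes are transcribed in late G1 under E2F factors, so their RNA is known as a marker of cells that are entering S phase.

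The study exposed bronchial epithelial cells (HBEC) that stably express WT, L858R or E746-E750 EGFR to low oxygen; both mutant forms alter the kinase domain and are known from lung cancer. Of the 6 groups, WT aerobic, L858R aerobic and E746-E750 aerobic were kept at 21% oxygen. The others, WT hypoxic, L858R hypoxic and E746-E750 hypoxic, were kept at 0.1% oxygen for 24 h. All were at 5% carbon dioxide and in a medium supplemented with EGF and pituitary extract. Each group had 2 arrays; nothing in the labels says that these came from separate cultures, so p-values measure only the spread between these samples. Whether a line is a clone or a pool, what drives the introduced EGFR, and whether the parental receptor remains are not given in the sources used here. In RNA from whole cultures, more cells in S phase and more of a transcript per cell cannot be told apart.

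All 12 arrays lay on 1 chip, the aerobic samples at positions 1 to 6 and the hypoxic samples at 7 to 12, so position and oxygen cannot be told apart. Within each oxygen level the order was WT, L858R and E746-E750, so position and EGFR form cannot be told apart either. Replicates correlated at 0.983 to 0.997 in 5 groups and at 0.849 in the L858R hypoxic pair, whose second array was the dimmest (14161 probes detected, against 16534 to 18171 on the other arrays). In that pair 20 of the 41 replication genes lay more than 1 log2 unit from their replicate, as did 29.9% of all genes; in the other 5 groups none of the 41 did. A fit over all 12 arrays takes its spread largely from this pair. Aerobic and WT comparisons are therefore also given from a fit to 8 arrays (the aerobic and WT hypoxic groups). That fit leaves out the E746-E750 hypoxic pair too, which correlated at 0.983 and enters none of these comparisons. Of 4 EGFR probes, 2 were detected on all 12 arrays, and whether either can tell the introduced forms apart was not examined. The brighter read between 9.59 and 10.21 at 21% oxygen and between 9.91 and 11.12 under hypoxia. The other read 9.34 and 9.22 in the WT aerobic samples against 8.02 to 8.28 in the mutant aerobic samples. Under hypoxia it read 10.51 and 10.62 in WT against 7.69 to 8.84 in the mutant samples. Each of the 9 basal epithelial markers with a probe was detected on all 12 arrays, with array means of 10.53 to 11.58. Of other cell types, 4 of 9 mesenchymal markers were detected on at least 2 arrays (ACTA2 on all 12; COL3A1, DCN, LUM, PDGFRA and THY1 on none), 3 of 6 leukocyte markers (CD14 and CD68 on all 12; PTPRC, CD3E and TYROBP on none) and 1 of 5 endothelial markers (CDH5, VWF and KDR on none). Their array means were 6.54 to 6.97, 6.79 to 7.44 and 5.91 to 6.28.

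**Figure D1:**
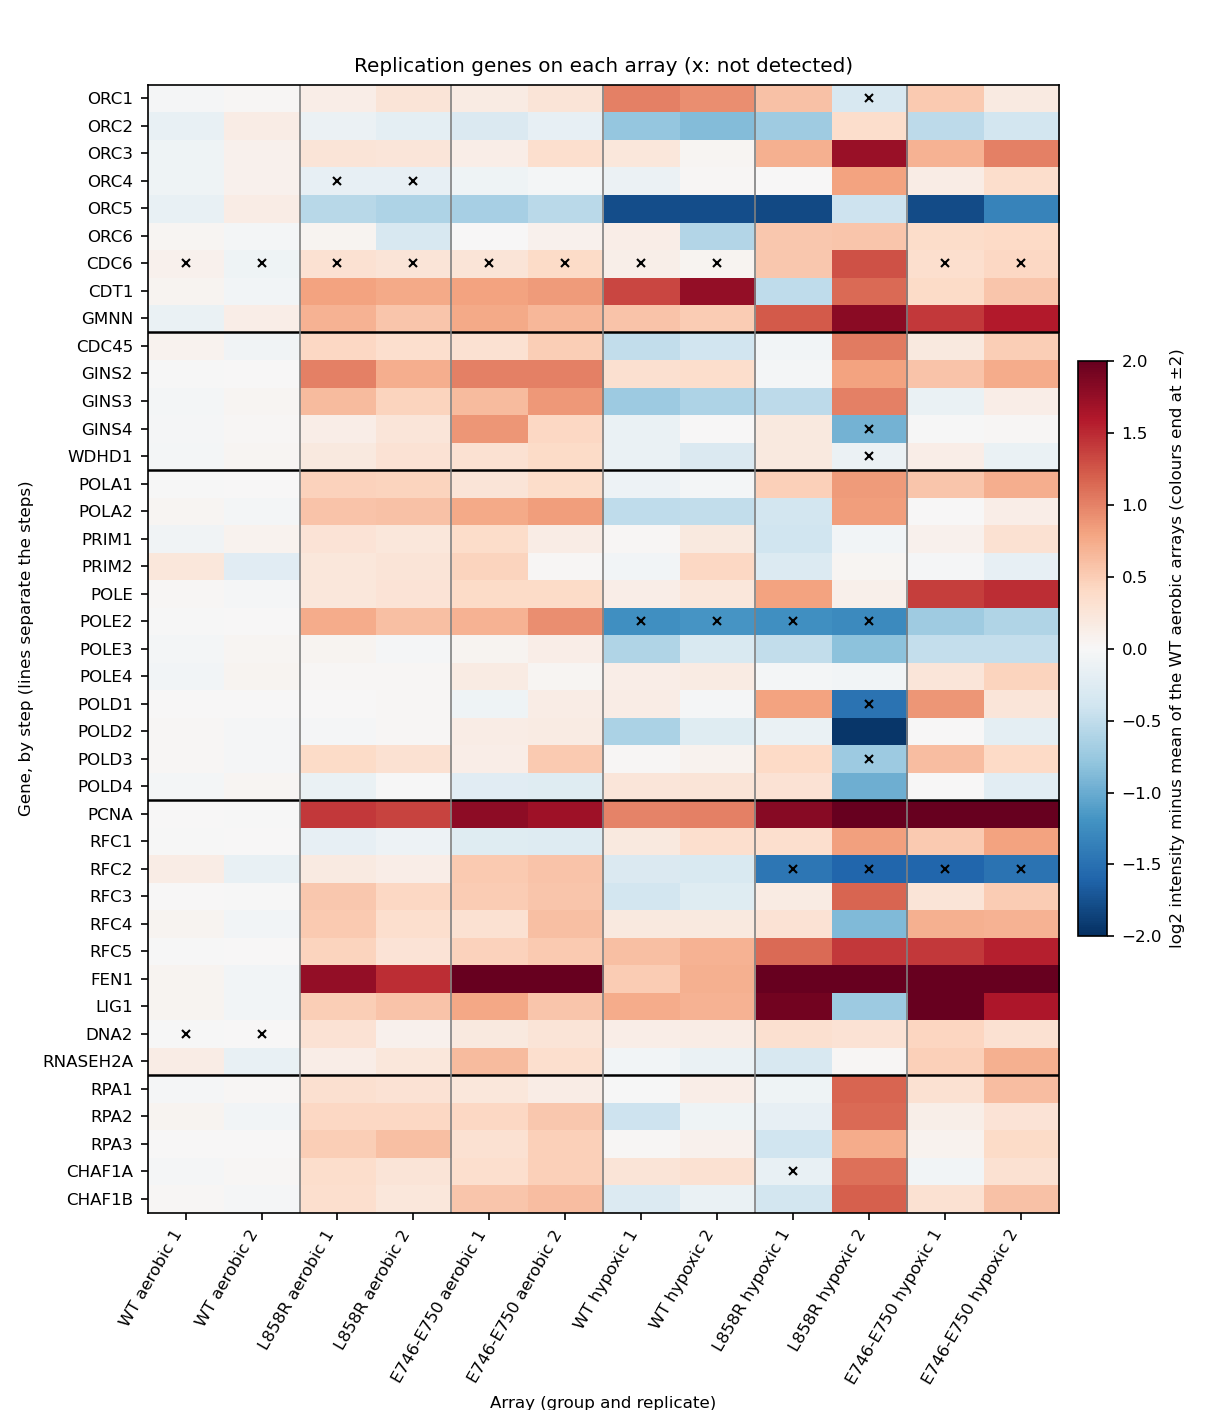
Log2 intensity of the 41 measured genes (y axis, by step) on each of the 12 arrays (x axis), as the difference from the mean of the 2 WT aerobic arrays; a cross marks a gene not detected on that array. PCNA and FEN1 are dark red across the mutant samples, most other genes are pale red in the aerobic mutant samples, and the second L858R hypoxic array differs from its replicate in 20 of the 41 genes by more than 1 log2 unit.

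At 21% oxygen most of these genes lay above WT in L858R and in E746-E750 cells. In L858R 34 of 41 lay above WT, with a median log2 difference of 0.27 against 0.00 over all genes, and in E746-E750 36 of 41 lay above WT, with a median of 0.38 against -0.02. Both counts include CDC6, which was not detected at 21% oxygen. In the fit to 8 arrays (limma, adjusted over all 11918 genes), 16 of the 41 were called higher (adjusted p under 0.05) in L858R, where 5.62% of all genes were, and 1, ORC5, was called lower, where 5.91% of all genes were. In E746-E750 24 were called higher (7.43% of all genes), or 23 without CDC6, which no aerobic array detected, and 1, again ORC5, was called lower (10.3% of all genes). Both comparisons use the same 2 WT arrays. In the fit to all 12 arrays, which takes in the spread of the L858R hypoxic pair, 0 members were called in L858R (0.0252% of all genes, and 7 members at an unadjusted p under 0.05) and 2, FEN1 and PCNA, in E746-E750 (0.277% of all genes). When 1 array was left out of the 8-array fit, the calls in E746-E750 were fewest without the second WT aerobic array. In L858R they were equally few without that array and without either L858R aerobic array. In such fits 1 group has 1 array left, and the ranges are given with the processing.

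The members' values were separated between groups more often than genes at large. In 29 of 41 members both L858R arrays lay above both WT arrays, and in 3 both lay below; among all genes these shares were 26.9% and 27.9%. For E746-E750 the counts were 32 and 4 of 41, against 26.5% and 32.6% of all genes. CDC6, not detected in these samples, is among the 29 and the 32. How far the higher values stand out depends on scaling. When each array was centred on its median and not quantile normalized, all genes had a median of -0.22 in E746-E750 minus WT, and the members' median, 0.11, lay 0.33 above it. In the 8-array fit 10 members were then called higher and 4 lower, while the share of all calls that were higher went from 41.8% to 4.89%. For L858R the same scaling left 12 called higher and 1 lower. The E746-E750 aerobic arrays had the lowest raw medians of the aerobic arrays, 114 and 122 against 129 to 133; its part in this was not tested.

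**Figure D2:**
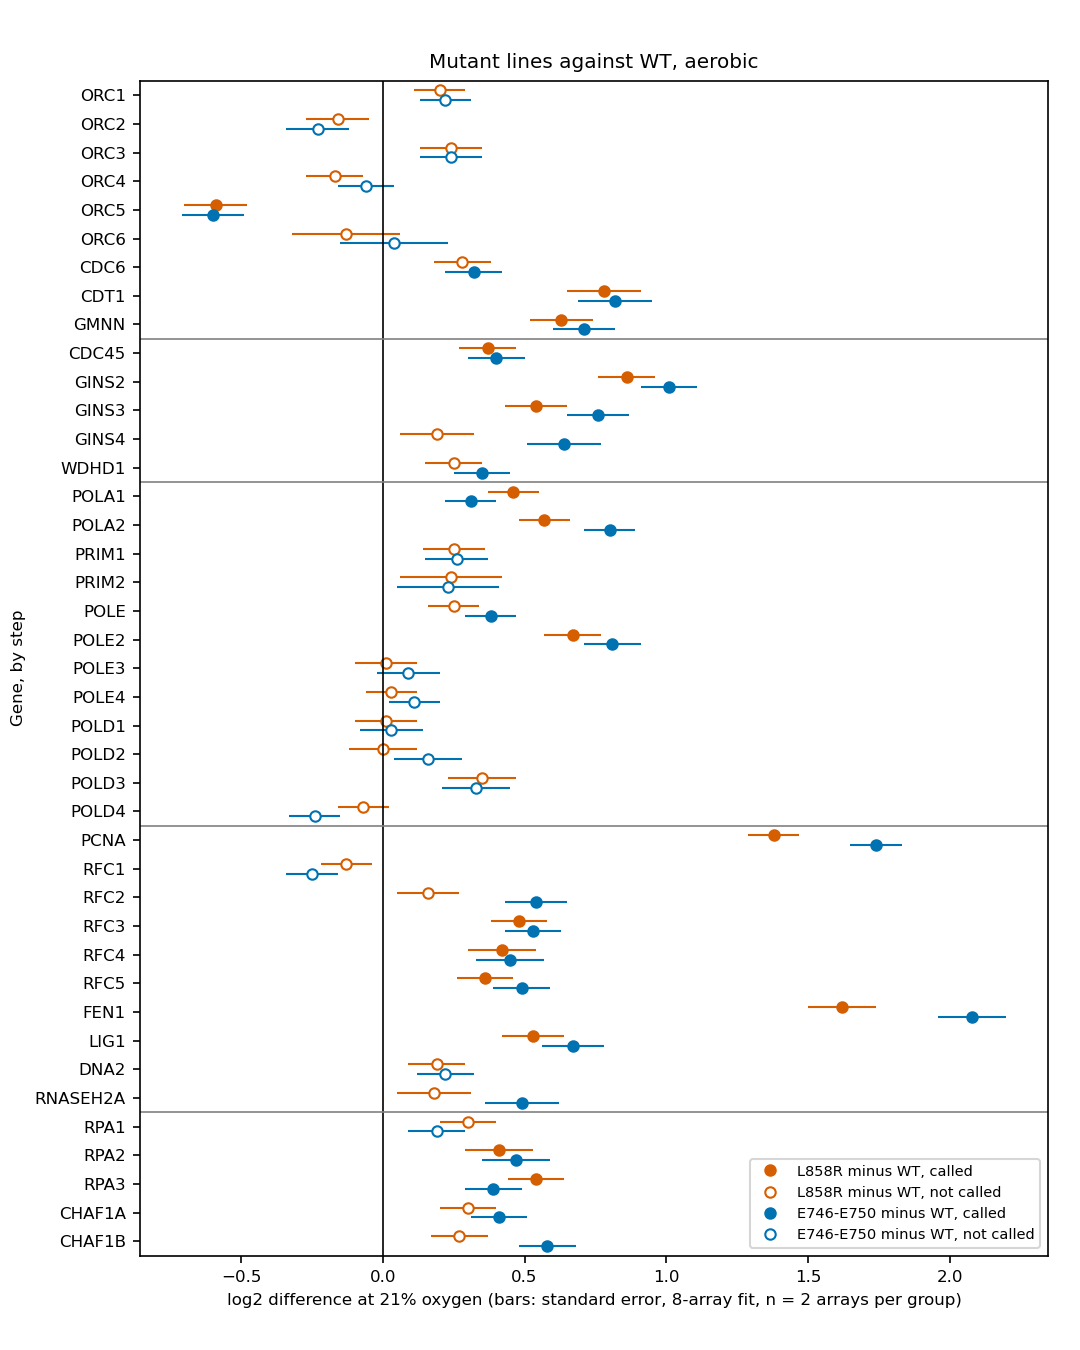
Log2 difference of each mutant line from WT at 21% oxygen (x axis) for the 41 measured genes (y axis, by step), with standard errors from the 8-array fit and 2 arrays per group; filled points were called. Points lie to the right of 0 for 34 genes in L858R and for 36 in E746-E750, FEN1 and PCNA lie farthest to the right, and ORC5 lies farthest to the left.

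The clamp and the flap endonuclease showed the largest differences. PCNA read 9.36 and 9.34 log2 units in the WT aerobic samples, 10.77 and 10.70 in L858R, and 11.14 and 11.05 in E746-E750. All 4 mutant values lay above both WT values. The difference was 1.38 ± 0.09 (SE) in L858R, 2.61-fold, with an adjusted p of 2.55e-06 (limma, 8 arrays). It was 1.74 ± 0.09 in E746-E750, 3.35-fold, with an adjusted p of 6.6e-07 (limma, 8 arrays). These values are from the brightest PCNA probe, and a further probe gave smaller differences, as given with the probes. FEN1, which removes the flaps at the ends of Okazaki fragments, read 8.6 and 8.5 in WT, 10.31 and 10.02 in L858R, and 10.59 and 10.67 in E746-E750. The difference was 1.62 ± 0.12 in L858R, 3.07-fold, and 2.08 ± 0.12 in E746-E750, 4.24-fold, with adjusted p of 5.99e-06 and 1.08e-06 (limma, 8 arrays). In the fit to 12 arrays the E746-E750 differences of FEN1 and PCNA had adjusted p of 0.019 and 0.0209 (limma), and neither was called in that fit when any 1 of the 10 arrays outside the L858R hypoxic pair was left out.

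Of the 10 clamp and lagging-strand genes, PCNA and FEN1 included, 9 were above WT in each mutant line, and 6 were called higher in L858R and 8 in E746-E750 in the 8-array fit. LIG1, the ligase that joins Okazaki fragments, read 7.62 and 7.50 in WT, 8.05 and 8.13 in L858R, and 8.34 and 8.11 in E746-E750, differences of 0.53 ± 0.11 and 0.67 ± 0.11. RFC3, RFC4 and RFC5, small subunits of the clamp loader, were called higher in each line, by 0.36 to 0.48 in L858R and by 0.45 to 0.53 in E746-E750. RFC2, another small subunit, differed by 0.16 ± 0.11 in L858R and 0.54 ± 0.11 in E746-E750, and RNASEH2A, the catalytic subunit of RNase H2, by 0.18 ± 0.13 and 0.49 ± 0.13; both were called in E746-E750 and not in L858R, a contrast between the lines that is tested further on. RFC1, the large subunit of the loader, was the exception, at -0.13 ± 0.09 and -0.25 ± 0.09, not called.

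All 5 measured firing genes were above WT in both lines. GINS2, a GINS subunit, read 9.37 and 9.39 in WT, 10.38 and 10.11 in L858R, and 10.39 on both E746-E750 arrays. It rose by 0.86 ± 0.10 in L858R and by 1.01 ± 0.10 in E746-E750, with adjusted p of 0.000348 and 7.08e-05 (limma, 8 arrays). GINS3 and CDC45 were also called higher in L858R (0.54 ± 0.11 and 0.37 ± 0.10), and GINS3, GINS4, CDC45 and WDHD1, which links the helicase to polymerase alpha, were called higher in E746-E750, by 0.35 to 0.76. CDC45 read 9.91 and 9.77 in WT against 10.25 and 10.17 in L858R and 10.15 and 10.33 in E746-E750, so the groups did not overlap.

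Among the polymerases the called genes were those of polymerases alpha and epsilon. POLE2, the second subunit of polymerase epsilon, read 7.52 and 7.54 in WT, 8.27 and 8.13 in L858R, and 8.23 and 8.46 in E746-E750. It differed by 0.67 ± 0.10 and 0.81 ± 0.10. POLA2, the second subunit of polymerase alpha, differed by 0.57 ± 0.09 and 0.80 ± 0.09, and POLA1, its catalytic subunit, by 0.46 ± 0.09 and 0.31 ± 0.09, all called. POLE, the catalytic subunit of polymerase epsilon, was 0.25 ± 0.09 higher in L858R, not called, and 0.38 ± 0.09 higher in E746-E750, called. None of the 4 polymerase delta genes was called: POLD1, the catalytic subunit, read 7.63 and 7.62 in WT, 7.63 and 7.65 in L858R and 7.54 and 7.77 in E746-E750. POLD2 lay within 0.16 of WT, POLD3 differed by 0.35 ± 0.12 and 0.33 ± 0.12, and POLD4 by -0.07 ± 0.09 and -0.24 ± 0.09. The histone-fold subunits POLE3 and POLE4 lay within 0.11 of WT, and the primase genes PRIM1 and PRIM2 at 0.23 to 0.26, not called.

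Licensing genes split. CDT1 and GMNN, the loader and its inhibitor, were both called higher in each line. CDT1 read 8.34 and 8.23 in WT, 9.09 and 9.04 in L858R, and 9.08 and 9.14 in E746-E750, differences of 0.78 ± 0.13 and 0.82 ± 0.13. GMNN read 7.61 and 7.87 in WT and 8.30 to 8.49 in the 4 mutant aerobic samples, differences of 0.63 ± 0.11 and 0.71 ± 0.11. CDC6 was not detected on any aerobic array, so no fold is given for it, although its adjusted p in E746-E750 was 0.0496 (limma, 8 arrays). The ORC genes gave a different picture. ORC5 read 9.90 and 10.20 in WT, 9.49 and 9.44 in L858R, and 9.39 and 9.51 in E746-E750, and it was lower by 1.5-fold and 1.52-fold, with adjusted p of 0.00515 and 0.00288 (limma, 8 arrays). ORC1, ORC2, ORC3, ORC4 and ORC6 differed by -0.23 to 0.24 and were not called in either line. ORC1, the E2F-driven subunit, read 6.48 and 6.53 in WT, 6.65 and 6.76 in L858R, and 6.68 and 6.77 in E746-E750.

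The single-strand binding and chromatin assembly genes lay above WT in all 5 cases in both lines. RPA2 and RPA3 were called in each line, at 0.41 ± 0.12 and 0.54 ± 0.10 in L858R and 0.47 ± 0.12 and 0.39 ± 0.10 in E746-E750. CHAF1A and CHAF1B, subunits of chromatin assembly factor 1, differed by 0.30 ± 0.10 and 0.27 ± 0.10 in L858R, not called, and by 0.41 ± 0.10 and 0.58 ± 0.10 in E746-E750, called. RPA1, the largest RPA subunit, differed by 0.30 ± 0.10 and 0.19 ± 0.10, not called.

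The 2 mutant lines were compared directly at 21% oxygen. In neither fit was any of the 41 genes called: limma called 2.27% of all genes in the 8-array fit, where 7 members had an unadjusted p under 0.05, and 0.0336% in the 12-array fit, where 1 member did. L858R lay below E746-E750 in most members: 10 of 41 were above 0, with a median of -0.08 against 0.02 over all genes. The largest differences were FEN1 at -0.47 ± 0.12, GINS4 at -0.45 ± 0.13, RFC2 at -0.38 ± 0.11 and PCNA at -0.36 ± 0.09, with adjusted p of 0.0618, 0.108, 0.0998 and 0.0664 (limma, 8 arrays). With median centring the median of all genes was 0.27 and that of the members 0.25, 12 members were called higher in L858R, and the share of all calls that were higher went from 58.9% to 98.9%, so the sign of the members' median turned with the scaling of all genes; relative to all genes the median was -0.10 before and -0.02 after centring.

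Lists of related genes were set beside these values; the shares of all genes called, 5.62% higher in L858R and 7.43% in E746-E750, apply to them too. Of 29 measured genes of the rest of the replication fork (the MCM helicase and its partners), 11 were called higher and 1 lower in L858R, and 16 higher and 1 lower in E746-E750 (limma, 8 arrays); the largest were MCM6 at 1.35 ± 0.11 in L858R and MCM4, another helicase subunit, at 1.59 ± 0.11 in E746-E750. Of 21 measured E2F and G1/S regulators 5 were called higher and 1 lower in L858R, and 7 higher and 1 lower in E746-E750. E2F2, an activating E2F factor, differed by 0.74 ± 0.12 and 0.83 ± 0.12. Of 15 mitotic and proliferation genes 1 was called higher in L858R and 5 in E746-E750. Their medians were 0.01 and 0.23, against 0.27 and 0.38 for the replication genes. Their part in the differences of the replication genes was not tested.

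The promoters of the genes with the largest aerobic differences are shown for the presence or absence of an E2F-type motif. RefSeq windows of 300 bases (GRCh38.p14, 250 before the start and 50 after it) were found for 37 of the 42 genes, 47 windows in all, and were searched on both strands for TTTNNCGC (GCGNNAAA on the other strand), the core letters of the E2F consensus. They are printed 5′ to 3′ on the strand of the gene, with every match in capitals: the 5 genes with the largest mean difference of the mutant lines from WT, and ORC5, the gene with the lowest. PCNA has 2 windows, and the window with a match is shown.
FEN1, chr11:61792661-61792960, plus strand: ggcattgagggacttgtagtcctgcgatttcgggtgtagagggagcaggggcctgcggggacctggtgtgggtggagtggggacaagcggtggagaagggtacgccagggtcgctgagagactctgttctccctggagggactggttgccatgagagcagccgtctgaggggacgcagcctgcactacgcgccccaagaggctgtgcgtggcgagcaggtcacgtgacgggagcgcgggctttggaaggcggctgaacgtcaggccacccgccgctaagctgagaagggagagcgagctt
PCNA, chr20:5126573-5126872, minus strand: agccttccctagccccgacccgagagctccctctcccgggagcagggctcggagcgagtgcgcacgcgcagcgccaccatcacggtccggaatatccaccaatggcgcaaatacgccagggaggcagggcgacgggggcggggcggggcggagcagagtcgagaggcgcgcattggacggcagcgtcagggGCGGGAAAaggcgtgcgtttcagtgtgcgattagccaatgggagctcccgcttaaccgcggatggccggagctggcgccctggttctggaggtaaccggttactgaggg
GINS2, chr16:85688905-85689204, minus strand: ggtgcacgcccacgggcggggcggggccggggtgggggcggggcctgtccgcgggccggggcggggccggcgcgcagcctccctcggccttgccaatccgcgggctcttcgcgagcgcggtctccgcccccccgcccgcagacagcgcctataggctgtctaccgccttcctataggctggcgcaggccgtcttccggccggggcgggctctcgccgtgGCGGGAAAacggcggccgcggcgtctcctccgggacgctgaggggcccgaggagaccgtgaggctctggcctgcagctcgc
CDT1, chr16:88803539-88803838, plus strand: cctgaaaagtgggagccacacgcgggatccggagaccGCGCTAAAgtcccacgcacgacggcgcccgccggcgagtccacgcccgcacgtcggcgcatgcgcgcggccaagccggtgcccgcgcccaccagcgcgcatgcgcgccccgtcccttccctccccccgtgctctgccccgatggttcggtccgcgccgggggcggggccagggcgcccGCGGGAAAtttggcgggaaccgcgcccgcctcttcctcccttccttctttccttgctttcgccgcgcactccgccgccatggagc
POLE2, chr14:49688165-49688464, minus strand: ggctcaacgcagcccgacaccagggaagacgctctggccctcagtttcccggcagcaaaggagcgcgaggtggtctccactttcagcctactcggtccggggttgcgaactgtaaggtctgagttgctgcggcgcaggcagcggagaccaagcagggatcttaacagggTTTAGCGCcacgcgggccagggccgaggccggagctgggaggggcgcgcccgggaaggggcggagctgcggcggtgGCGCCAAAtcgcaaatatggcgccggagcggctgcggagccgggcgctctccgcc
ORC5, chr7:104207964-104208263, minus strand: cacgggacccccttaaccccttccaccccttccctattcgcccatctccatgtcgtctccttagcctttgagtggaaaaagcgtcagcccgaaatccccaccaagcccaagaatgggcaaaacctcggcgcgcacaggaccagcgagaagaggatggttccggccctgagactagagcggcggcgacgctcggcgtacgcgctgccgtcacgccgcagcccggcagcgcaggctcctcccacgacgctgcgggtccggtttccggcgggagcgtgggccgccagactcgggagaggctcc

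PCNA and GINS2 each hold 1 match, which starts at position -59 and -31 from the start site. CDT1 holds 2, at -213 and -35, and POLE2 holds 2, at -81 and -5. The windows of FEN1 and ORC5 hold none, which says only that these letters are absent from these 300 bases; FEN1 had the largest difference of all and ORC5 the lowest. Over all 47 member windows 40.4% held the motif, against 6.89% of the 35116 windows of all genes. By call, 11 of the 14 matched members called higher in L858R (8 arrays) held it and 7 of the 22 others did. In E746-E750 the counts were 14 of 21 and 4 of 15. The 14 and the 21 include CDC6, which holds the motif and which no aerobic array detected. The same windows were searched for CCAAT (in 51.1% of member windows and 34.6% of all), the GC box GGGCGG (74.5% and 45.0%), and TTTGAA, the cell cycle homology region of G2/M genes (2.13% and 15.2%). GGGCGG and GCGNNAAA can overlap, as they do in the PCNA window; in the other windows shown they do not. These are matches of letters, not measured binding sites.

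Hypoxia did not move the replication genes as a body in any line. In WT cells 23 of 41 lay above 0, with a median log2 difference of 0.07 against -0.03 over all genes; in L858R 19 lay above 0, with a median of -0.07 against 0.09; in E746-E750 21 lay above 0, with a median of 0.06 against 0.10. Single genes moved in both directions. In the fit to 12 arrays (limma), 4 members were called higher (5.37% of all genes) and 2 lower (7.71%) in WT, 6 higher (16.1%) and 3 lower (12.6%) in L858R, and 5 higher (16%) and 3 lower (11.1%) in E746-E750. In the 8-array fit 11 were called higher (20.2% of all genes) and 10 lower (27.1%) in WT. These shares of members lie near those of all genes. With median centring the share of all calls that were higher went from 41.1% to 23.0% in WT (42.7% to 26.0% in the 8-array fit), from 56.2% to 44.4% in L858R and from 59.1% to 77.1% in E746-E750.

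**Figure D3:**
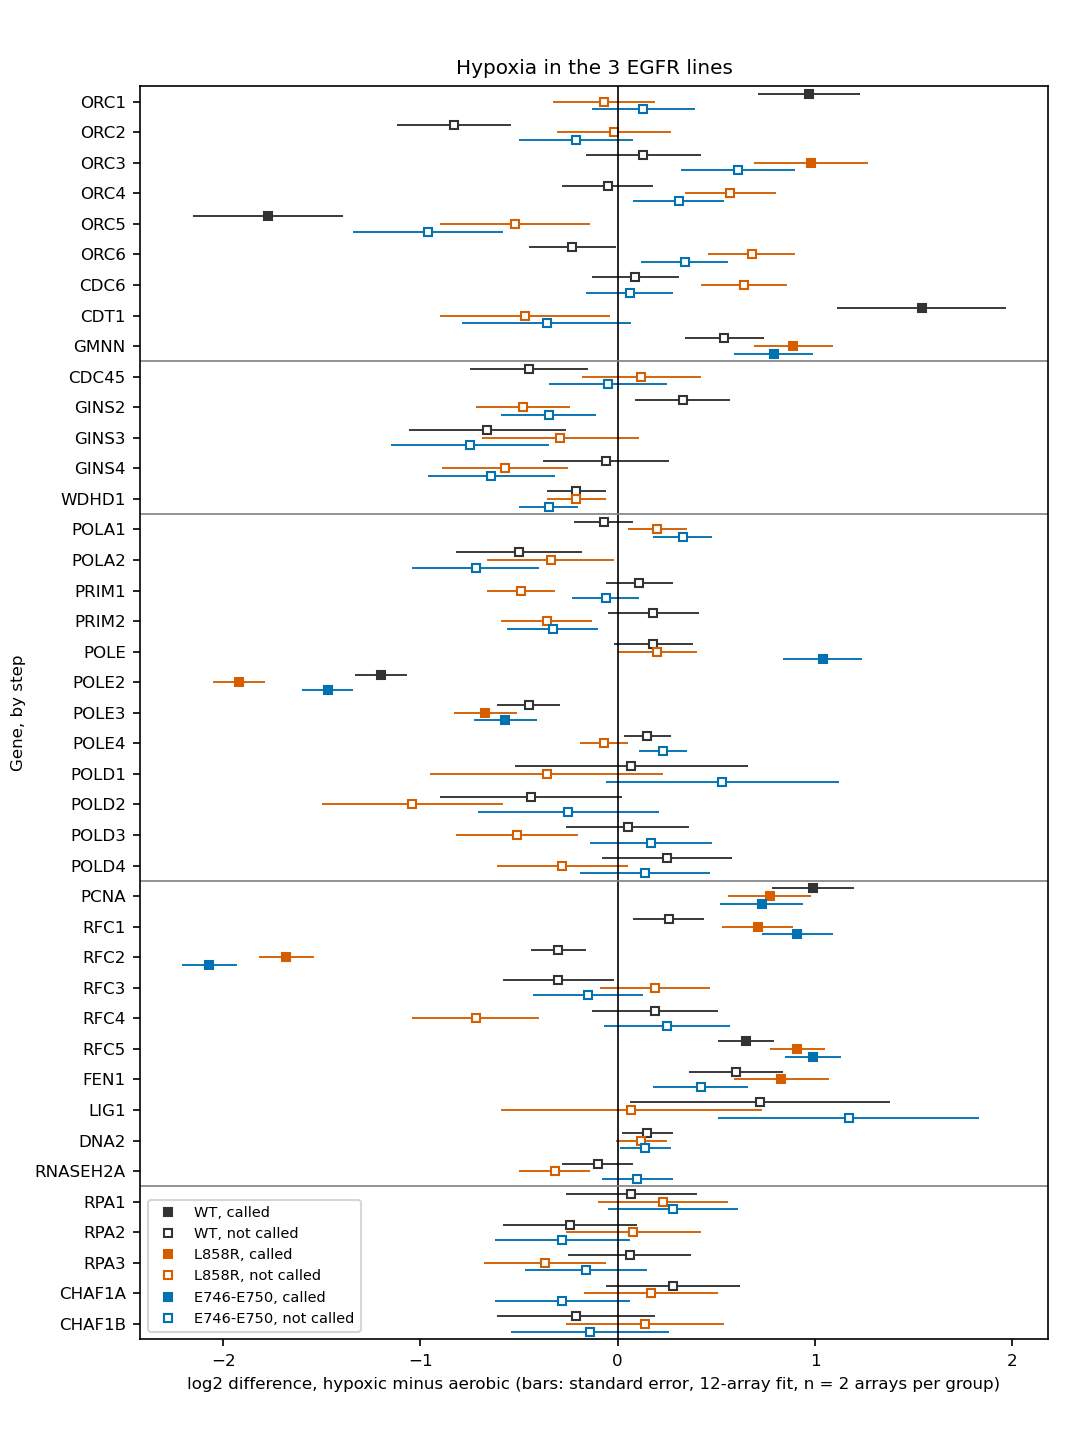
Log2 difference of hypoxic minus aerobic samples (x axis) in WT, L858R and E746-E750 cells for the 41 measured genes (y axis, by step), with standard errors from the 12-array fit and 2 arrays per group; filled squares were called. PCNA and RFC5 lie to the right of 0 and POLE2 to the left in all 3 lines, RFC2 lies farthest left in E746-E750, and CDT1 lies farthest right in WT.

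The licensing loader CDT1 had the largest hypoxic increase in WT and was not called higher in either mutant line. It read 8.34 and 8.23 in WT aerobic and 9.62 and 10.04 in WT hypoxic samples, a rise of 1.54 ± 0.43 (12 arrays; SE 0.13 in the 8-array fit), with adjusted p of 0.0473 and 6.83e-07 (limma, 12 and 8 arrays). In L858R it read 9.09 and 9.04 before and 7.78 and 9.42 after, so the groups overlapped. In E746-E750 it read 9.08 and 9.14 before and 8.67 and 8.83 after, -0.36 ± 0.43, not called. The mutant response minus the WT response was -2.01 ± 0.60 for L858R and -1.90 ± 0.60 for E746-E750, with adjusted p of 0.0825 and 0.104 (limma, 12 arrays), neither called. Without the second L858R hypoxic array these differences were -2.83 ± 0.21 and -1.90 ± 0.19, with adjusted p of 8.91e-06 and 3.8e-05 (limma); in that fit the remaining L858R hypoxic array takes its spread from the other groups.

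Geminin, the inhibitor of CDT1, read 7.61 and 7.87 in WT aerobic, 8.31 and 8.24 in WT hypoxic, 8.43 and 8.30 in L858R aerobic, 8.97 and 9.55 in L858R hypoxic, 8.49 and 8.40 in E746-E750 aerobic, and 9.15 and 9.32 in E746-E750 hypoxic samples. Hypoxic values lay above aerobic values in all 3 lines, by 0.54, 0.89 and 0.79, called in L858R and E746-E750 (12 arrays) and in WT (8 arrays). ORC1 rose in WT, from 6.48 and 6.53 to 7.51 and 7.44, or 0.97 ± 0.26, with an adjusted p of 0.043 (limma, 12 arrays). Its response minus that of WT was -1.03 ± 0.37 in L858R and -0.84 ± 0.37 in E746-E750, neither called; without the second L858R hypoxic array both were called, at -0.58 ± 0.19 and -0.84 ± 0.17. ORC5 fell by 1.77 ± 0.38 in WT, from 9.90 and 10.20 to 8.28 on both arrays, with an adjusted p of 0.0177 (limma, 12 arrays). It read 8.24 and 9.64 in L858R hypoxic and 8.26 and 8.73 in E746-E750 hypoxic samples; without the second L858R hypoxic array the falls in the mutant lines were called too, at -1.22 ± 0.19 and -0.96 ± 0.15. ORC3 was called higher in L858R, at 0.98 ± 0.29, from 8.36 and 8.34 to 8.82 and 9.84. CDC6 was detected on 2 arrays only, both L858R hypoxic, at 6.57 and 7.31.

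None of the firing genes was called under hypoxia in the 12-array fit. GINS3 read 7.58 and 7.67 in WT aerobic and 6.90 and 7.01 in WT hypoxic samples, and it fell by 0.66 ± 0.11 in the 8-array fit, with an adjusted p of 0.000329 (limma). CDC45 fell there by 0.45 ± 0.10, while GINS2 rose by 0.33 ± 0.10. In E746-E750 all 5 measured firing genes lay below 0, between -0.75 and -0.05, and GINS2, GINS3, GINS4 and WDHD1 were called lower once the second L858R hypoxic array was left out.

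Polymerase epsilon subunits went in opposite directions. POLE2 read 7.52 and 7.54 in WT aerobic and 6.31 and 6.35 in WT hypoxic samples, where it was not detected, so it was at least 2.16-fold lower, with an adjusted p of 0.000742 (limma, 12 arrays). In L858R it went from 8.27 and 8.13 to 6.31 and 6.25, again not detected and at least 3.17-fold lower, with an adjusted p of 4e-05 (limma). In E746-E750 it went from 8.23 and 8.46 to 6.82 and 6.93, still detected, 2.77-fold lower, with an adjusted p of 0.000127 (limma). POLE3 was called lower in both mutant lines, at -0.67 ± 0.16 and -0.57 ± 0.16, and differed by -0.45 in WT. The catalytic subunit POLE rose in E746-E750, from 7.24 and 7.23 to 8.22 and 8.32, or 1.04 ± 0.20, with an adjusted p of 0.00595 (limma, 12 arrays); it differed by 0.18 in WT and 0.20 in L858R, or 0.55 ± 0.12 in L858R, called, without the second L858R hypoxic array. The difference of that response from WT, 0.86 ± 0.29, was not called over 12 arrays, with an adjusted p of 0.118 (limma), and was called without the second L858R hypoxic array, with an adjusted p of 0.000633 (limma). POLD1 read 8.51 and 7.87 in E746-E750 hypoxic and 8.42 and 6.14 in L858R hypoxic samples, against 7.54 to 7.77 on the 8 other arrays. It was not called in any line over 12 arrays; without the second L858R hypoxic array it was called higher in L858R, at 0.78 ± 0.21, and in E746-E750, at 0.53 ± 0.17.

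The clamp and its loader gave calls in every line. PCNA, by its brightest probe, read 10.34 and 10.35 in WT hypoxic, 11.17 and 11.84 in L858R hypoxic, and 11.67 and 11.97 in E746-E750 hypoxic samples. Each lay above its aerobic group, by 0.99, 0.77 and 0.73 ± 0.21, with adjusted p of 0.0163, 0.0247 and 0.0321 (limma, 12 arrays); a further PCNA probe went the other way, as given with the probes. RFC5 rose by 0.65, 0.91 and 0.99 ± 0.14 in WT, L858R and E746-E750. It read 8.97 and 8.99 in WT aerobic against 9.58 and 9.67 in WT hypoxic samples, and 9.25 to 9.50 in mutant aerobic against 10.11 to 10.54 in mutant hypoxic samples, with no overlap. RFC1 was called higher in the mutant lines, at 0.71 and 0.91 ± 0.18. FEN1, by its brightest probe, was called higher in L858R, at 0.83 ± 0.24, from 10.31 and 10.02 to 10.60 and 11.39. A further FEN1 probe went the other way there, as given with the probes. LIG1 read 8.30 and 8.26 in WT hypoxic, 9.49 and 6.84 in L858R hypoxic, and 9.62 and 9.17 in E746-E750 hypoxic samples. Its rise in E746-E750, 1.17 ± 0.66, was not called over 12 arrays, with an adjusted p of 0.233 (limma), and was called without the second L858R hypoxic array, at an SE of 0.14 and an adjusted p of 3.41e-05 (limma). Its rise in WT, 0.72 ± 0.11 in the 8-array fit, had an adjusted p of 0.000104 (limma).

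RFC2 was the only member called in the test of the difference in response from WT over 12 arrays. Its brighter probe read 7.72 and 7.41 in WT aerobic and 7.27 and 7.25 in WT hypoxic samples. In L858R it went from 7.75 and 7.70 to 6.12 and 5.98, and in E746-E750 from 8.08 and 8.13 to 5.99 and 6.08; it was not detected on any of the 4 mutant hypoxic arrays and so was at least 2.28-fold and at least 3.19-fold lower. The fitted mutant response minus the WT response was -1.37 ± 0.20 for L858R and -1.77 ± 0.20 for E746-E750, with adjusted p of 0.00565 and 0.00185 (limma), but these fits use values in the background. With the mutant hypoxic arrays at the detection level, the differences were -0.89 and -1.37 on the log2 scale, which are bounds with no test of their own. In these 2 tests 7.76% and 7.29% of all genes were called, and with median centring the share of calls that were higher went from 56.0% to 67.7% and from 59.4% to 91.6%. The other detected RFC2 probe gave -0.26 and 0.05 for the same differences, not called, so the response rests on 1 probe. That other probe read 6.55 to 6.99 on the aerobic arrays, near the detection level of 6.38 to 6.66, so it had little room to show a fall. In L858R hypoxic samples it was not detected, at 6.36 and 6.37. Without the second L858R hypoxic array 11 members were called in each test, 2 higher and 9 lower for L858R (29.3% of all genes called either way) and 5 higher and 6 lower for E746-E750 (39.8%); without the first, 29 and 11 were called, with 62.5% and 39.8% of all genes.

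The hypoxic calls rest heavily on the L858R pair. In WT and E746-E750 leaving out either array of that pair gave the same count, and only in L858R did the counts differ. The lowest counts below were shared too, in WT by any 1 WT array left out and in L858R by either L858R aerobic array. Leaving out 1 array at a time gave 1 to 16 called members in WT, 3 to 30 in L858R and 4 to 21 in E746-E750, the highest without the first L858R hypoxic array, where 40.3%, 70.5% and 58.6% of all genes were called. The lowest came without the first WT aerobic, the first L858R aerobic and the second E746-E750 hypoxic array, with 4.41%, 13.6% and 13.1% of all genes. Without the second L858R hypoxic array, hypoxia in L858R called 11 members higher and 17 lower (46.9% of all genes called either way), and hypoxia in E746-E750 called 11 higher and 10 lower (58.6%). In both lines GMNN, PCNA, RFC1, RFC5, FEN1, LIG1, POLE, POLD1 and ORC3 were then among the higher, and ORC5, CDT1, GINS2, GINS3, POLA2, POLE2, POLE3 and RFC2 among the lower. In the 5 single-strand binding and chromatin assembly genes the result in L858R turned on that array. Over 12 arrays none was called, and without it the differences ran from -0.94 (RPA3) to -0.4 (RPA1). CHAF1A, at 6.40, was not detected on the remaining L858R hypoxic array, so its difference rests on a background value. The RPA1 fall was by its brightest probe only. Its other probes read 9.74 and 9.56 on that remaining array, above 9.47 and 9.48, and 9.25 and 9.34, in L858R aerobic samples. RPA3 read 11.85 and 11.96 in L858R aerobic and 10.97 and 12.11 in L858R hypoxic samples. On CDT1 in L858R the sign depends on the array. It was -1.29 ± 0.17 without the second, and the second read 9.42, above both aerobic arrays. Leaving out 1 array ended the hypoxia call for 10 of the 12 arrays for CDT1 and ORC1 in WT, ORC3 in L858R and PCNA in E746-E750. For FEN1 in L858R it did so for 8. POLE2 in each line, RFC2 and RFC5 in both mutant lines and POLE in E746-E750 kept their calls throughout.

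Under hypoxia, by the brightest probe of each gene, E746-E750 was again above WT in most members, and L858R about as often as over all genes. Of the 13 members with at least 2 detected probes, the brightest pair had the same sign in 4 for L858R and in 3 for E746-E750. Among all genes with such pairs the shares were 60.8% and 62.1%. In L858R 25 of 41 members lay above WT, where 60.3% of all genes did, with a median of 0.25 against 0.13 over all genes; limma called 9 higher (13.6% of all genes) and 1 lower (8.15%). In E746-E750 34 lay above WT, where 62.5% of all genes did, with a median of 0.40 against 0.13, and 8 were called higher (11.5%) and 1 lower (6.33%). Both comparisons share the WT hypoxic arrays. With median centring the share of all calls that were higher went from 64.5% to 79.1% in E746-E750. FEN1 read 9.05 and 9.26 in WT hypoxic, 10.60 and 11.39 in L858R hypoxic, and 11.06 and 11.04 in E746-E750 hypoxic samples, higher by 1.84 and 1.90 ± 0.24. PCNA was higher by 1.16 and 1.48 ± 0.21, GMNN by 0.98 and 0.96 ± 0.20, POLA1 by 0.72 and 0.70 ± 0.15, and RFC5 by 0.63 and 0.84 ± 0.14, each called in both lines. Further probes of FEN1 and PCNA went the other way in both lines, as given with the probes. ORC3 (1.09), RFC3 (0.97) and ORC6 (0.77) were called higher in L858R; without the second L858R hypoxic array ORC3 was 0.58 and RFC3 0.47, and the second RFC3 probe gave -0.95. Leaving out 1 array ended the ORC3 call for 8 of the 12 arrays and the RFC3 call for 10. CDC6, not detected in WT hypoxic samples, was at least 1.44-fold higher in L858R; it was measured at all only because the 2 L858R hypoxic arrays detected it, so it could pass only by being high there, and 8 of the 9 calls are left without it. POLE (1.25), RNASEH2A (0.69) and POLE2 (at least 1.37-fold) were called higher in E746-E750. RFC2 was lower in both, at least 1.66-fold in L858R and at least 1.78-fold in E746-E750. For E746-E750 leaving out either L858R hypoxic array gave the same count of called members. Counts with 1 array left out ran from 3 to 33 in L858R and from 4 to 31 in E746-E750, lowest without the second WT hypoxic and the second E746-E750 hypoxic array (7.72% and 6.13% of all genes called) and highest without the first L858R hypoxic array (69.8% and 51.9%). Without the second L858R hypoxic array 13 members were called higher and 5 lower in L858R (39.1% of all genes called either way), and 27 higher and 4 lower in E746-E750 (51.9%). The lower members in E746-E750 were then ORC1, CDT1, POLD4 and RFC2.

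Different probes of a gene did not always tell the same story under hypoxia. Of the 41 genes, 13 had at least 2 detected probes. In the aerobic comparisons with WT the brightest pair had the same sign in 12 of 13 (L858R) and 13 of 13 (E746-E750). Among the 3213 genes with such pairs the shares were 69.6% and 70.6%. The pair of 1 member differed by more than 1 log2 unit in each of these comparisons, as did 0.187% and 0.249% of genes. Under hypoxia the counts of pairs with the same sign were 10 of 13 in WT, 6 in L858R and 9 in E746-E750 (76.7%, 63.6% and 65.0% of genes). In the mutant lines against WT under hypoxia they were 4 and 3 of 13 (60.8% and 62.1% of genes). On single arrays, after each probe was set to its aerobic mean, the pairs of 1 member lay more than 1 log2 unit apart on each WT hypoxic array, of 4 and 7 members in the L858R hypoxic samples, and of 4 and 6 members in the E746-E750 hypoxic samples; the shares of all genes were 2.71% to 3.11%, 18.0% and 45.8%, and 20.2% and 27.3%. Which transcript each probe reads was not examined, since no probe sequences were used here.

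**Figure D4:**
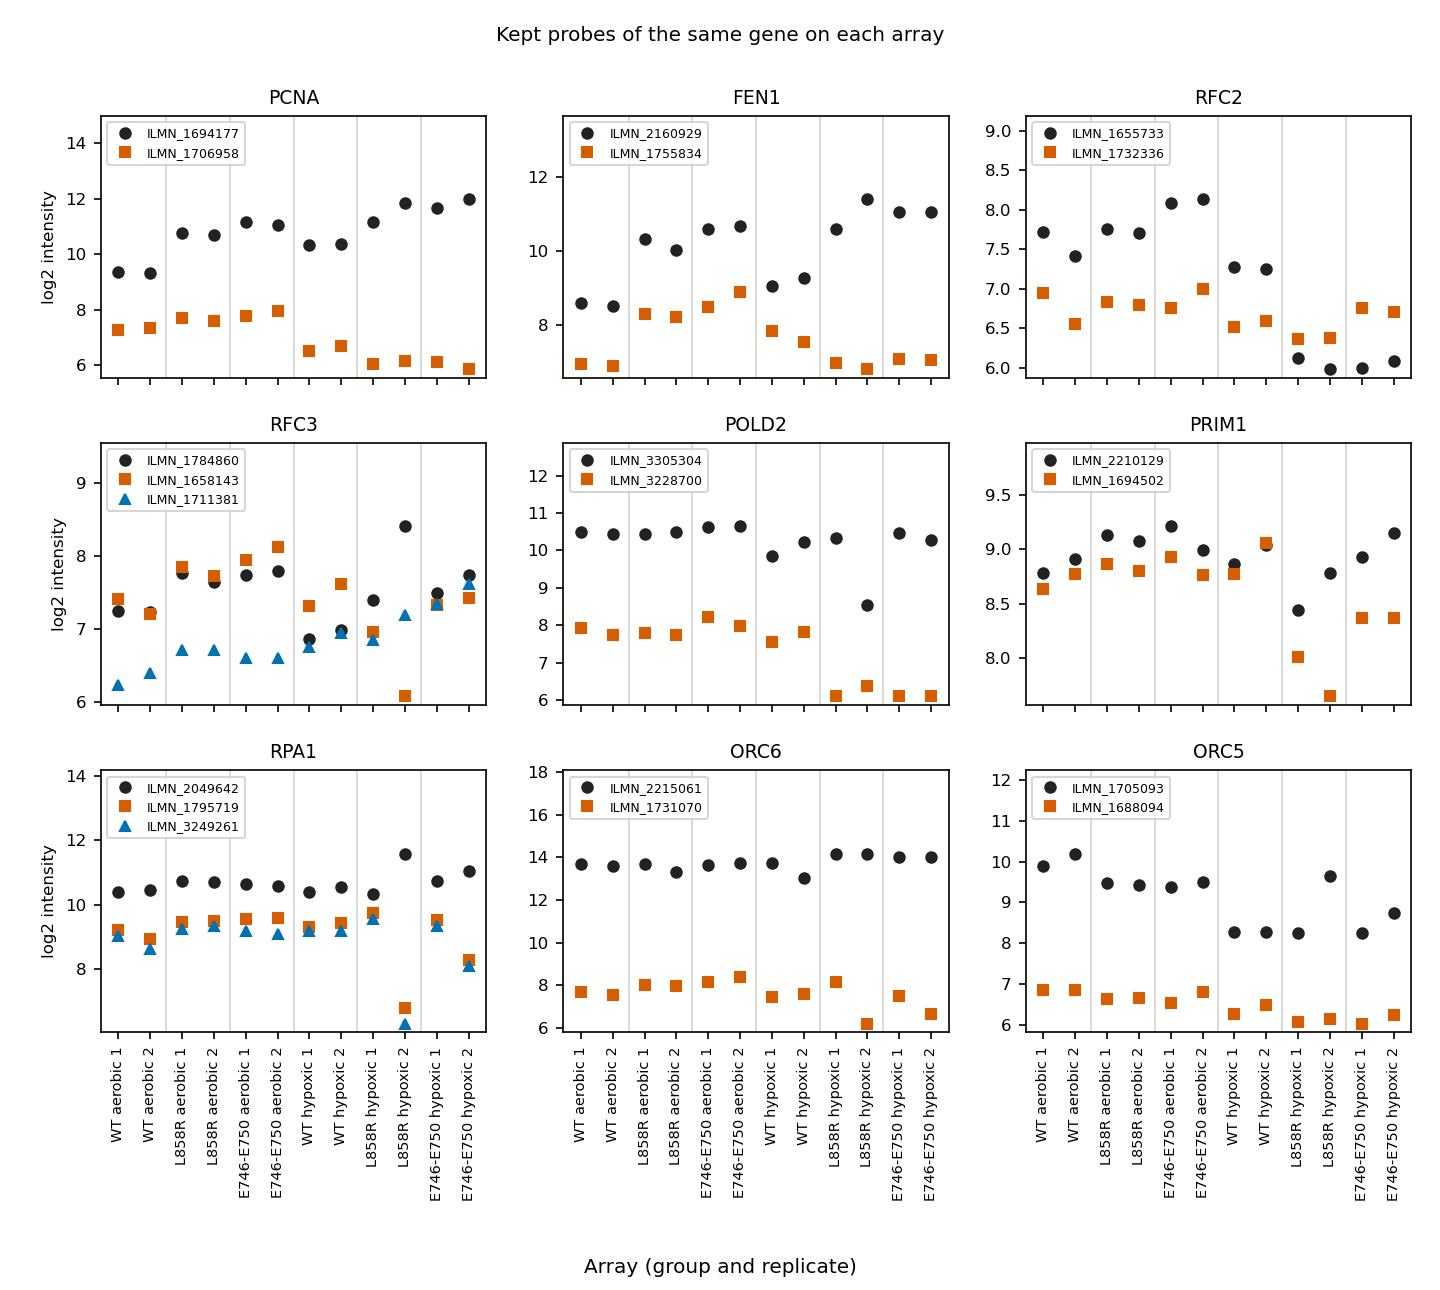
Log2 intensity (y axis) of every detected probe of 9 genes on each of the 12 arrays (x axis), with 1 colour and symbol per probe. The probes of FEN1 and POLD2 run in parallel on the aerobic arrays and part on the mutant hypoxic arrays. Those of PCNA rise by unequal amounts in the aerobic mutant samples and part on the WT and mutant hypoxic arrays. The RPA1 probes part on the second L858R hypoxic array and on the second E746-E750 hypoxic array.

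PCNA shows the split most plainly. Its brightest probe (ILMN_1694177) rose under hypoxia in all 3 lines, while ILMN_1706958 fell from 7.27 and 7.34 to 6.51 and 6.71 in WT, from 7.71 and 7.60 to 6.06 and 6.16 in L858R, and from 7.79 and 7.96 to 6.14 and 5.86 in E746-E750. The difference in WT was -0.70 ± 0.14, called (limma over all 21237 detected probes). The dimmer probe was not detected on the mutant hypoxic arrays and was there at least 2.17-fold lower in L858R and at least 2.71-fold lower in E746-E750, both called. At 21% oxygen both probes were above WT, the dimmer by 0.34 ± 0.11 in L858R, not called, and by 0.56 ± 0.11 in E746-E750, called. The FEN1 probes moved the same way in WT and parted in the mutant lines: ILMN_2160929 differed by 0.60, 0.83 and 0.42 under hypoxia in WT, L858R and E746-E750, and ILMN_1755834 by 0.77, -1.36 and -1.61 ± 0.17, all 3 called. At 21% oxygen both FEN1 probes were called higher, the dimmer by 1.33 ± 0.14 and 1.76 ± 0.14. So under hypoxia the direction of FEN1 against WT depends on the probe, 1.84 and 1.90 by the brighter and -0.80 and -0.62 by the dimmer. The dimmer PCNA probe, not detected in the mutant hypoxic samples, was at least 1.05-fold and at least 1.13-fold lower than in WT hypoxic samples, against 1.16 and 1.48 log2 units higher by the brighter.

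Other genes split in the same arrays. POLD2 read 10.33 and 8.53 in L858R hypoxic and 10.47 and 10.28 in E746-E750 hypoxic samples by ILMN_3305304, and 6.12, 6.38, 6.10 and 6.11 on the same arrays by ILMN_3228700, which was not detected there and had fallen by at least 2.36-fold and at least 3.17-fold. PRIM1 by ILMN_1694502 was called lower in L858R, at -1.01 ± 0.16, and its brighter probe was not called. RFC3 by ILMN_1658143 was called lower in L858R, at -1.26 ± 0.26, while ILMN_1711381 was called higher in E746-E750, at 0.87 ± 0.16. ORC6 read 14.17 on both L858R hypoxic arrays by its brightest probe and 8.14 and 6.21 by the other. In E746-E750 the brightest probe went from 13.62 and 13.71 to 14.00 and 14.02, and the other from 8.14 and 8.37 to 7.48 and 6.66. RPA1 read 10.33 and 11.59 in L858R hypoxic samples by ILMN_2049642, against 9.74 and 6.80 by ILMN_1795719 and 9.56 and 6.31 by ILMN_3249261. ORC5 by ILMN_1688094 went the same way as its brightest probe, from 6.86 and 6.85 to 6.26 and 6.49 in WT.

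Across the 6 groups, the highest mean of a member was in E746-E750 hypoxic samples for 12 genes, in E746-E750 aerobic and L858R hypoxic samples for 11 each, and in WT hypoxic samples for 3 (21.7%, 11.7%, 30.6% and 13.5% of all genes). The lowest mean was in WT aerobic samples for 15, in L858R hypoxic samples for 12 and in WT hypoxic samples for 11 (14.6%, 18.9% and 24.8% of all genes). For the related lists under hypoxia (limma, 12 arrays) the shares of all genes called were those given above, 5.37% higher and 7.71% lower in WT, 16.1% and 12.6% in L858R, and 16% and 11.1% in E746-E750. Of 29 other fork genes 3 were called higher and 2 lower in WT, 3 and 4 in L858R, and 3 and 3 in E746-E750. MCM6 was among the lower in each line and ASF1B, a histone chaperone, among the higher. Of 21 E2F and G1/S regulators 2 were called higher and 4 lower in WT, 1 and 6 in L858R, and 1 and 6 in E746-E750, with medians of -0.43, -0.39 and -0.38. E2F7, a repressive E2F factor, was called higher in each line, and CDC25A, the phosphatase that activates CDK2, was called lower in each. Of 15 proliferation genes 1 was called higher and 1 lower in WT, 1 and 2 in L858R, and 0 and 3 in E746-E750; CDC20, a mitotic activator, was lower in each.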

How the data were processed

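RNA of 12 samples was read as biotinylated cRNA on Illumina bead arrays, per the labels' protocols. The authors deposited raw linear probe intensities without background subtraction; neither detection p-values nor control probes come with them. Their processed log2 values, as deposited, are quantile normalized (median 3.11 on every array); no source used here gives their background correction.

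Background correction by normexp (offset 50), quantile normalization and log2 transformation were run in limma 3.58.1 (R 4.3.3). Probes detected on at least 2 arrays were kept (21237), where detected means above percentile 99 of the array's mirrored noise peak (6.38 to 6.66 on the normalized scale). A gene took its brightest kept probe by mean over the arrays. Models with 1 mean per group (lmFit, eBayes, two-sided) were fitted to all 12 arrays (6 residual degrees of freedom) and, as an alternative, to 8 arrays (4), with Benjamini-Hochberg adjustment over all 11918 genes. The fitting was tested on simulated data. A fold against an undetected group is a bound, from the means of the normalized log2 values and the lowest detected signal on each array. Precision is limited by 2 arrays per group. Genes were named as the largest called differences per comparison, a fixed set (PCNA, CDC6, CDT1, ORC1, CDC45, POLE, POLD1 and LIG1), members whose probes disagreed, and members not detected; others named were chosen after their values were seen. The members and lists were chosen with earlier results of these data known. Alternatives covered background, scaling, filter, probe, weights, replicate block and arrays left out.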

Additional observations from a re-analysis of the deposited data

Results flagged for a closer look

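The response of RFC2, a clamp loader subunit, to hypoxia differed between the lines by the test of the difference itself (limma over 12 arrays). The L858R response minus the WT response was -1.37 ± 0.20, adjusted p 0.00565, and the E746-E750 response minus the WT response was -1.77 ± 0.20, adjusted p 0.00185; both use the same WT arrays. The probe was not detected on any of the 4 mutant hypoxic arrays, whose values all lay below the WT hypoxic values, so the fitted sizes rest on background; with those arrays at the detection level the differences were -0.89 and -1.37, as bounds with no test of their own. The other RFC2 probe gave -0.26 and 0.05, not called. It read 6.55 to 6.99 on the aerobic arrays, near the detection level, so it had little room to show a fall.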

How the results depend on the processing

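Counts of called members over 12 arrays were 6, 9 and 8 for hypoxia in WT, L858R and E746-E750, 0, 2 and 0 for L858R against WT, E746-E750 against WT and L858R against E746-E750 at 21% oxygen, 10 and 9 for the mutant lines against WT under hypoxia, and 1 and 1 for the response differences. The cause of each change given here was not tested, except where fewer arrays or genes entered the fit by construction. Without background correction the L858R response difference had 2. With median centring the counts were 14 and 13 for hypoxia in L858R and E746-E750, 2 for L858R against WT at 21% oxygen, 17 for E746-E750 against WT under hypoxia, and 3 and 10 for the response differences. With the authors' values they were 3 for hypoxia in WT and 1 for E746-E750 against WT at 21% oxygen. Without a filter the L858R response difference had 2, and with genes detected on all 12 arrays both response differences had 0. With the mean of a gene's probes L858R against WT at 21% oxygen had 1 and the response differences 4 and 2; with the second brightest probe E746-E750 against WT at 21% oxygen had 1 and the response differences 6 and 3. With array weights, which gave each L858R hypoxic array 0.0667, the counts were 18, 2 and 18 for hypoxia, 20, 25 and 4 at 21% oxygen, 0 and 23 under hypoxia, and 0 and 9 for the response differences. With only the arrays compared they were 17, 0 and 18, then 20, 26 and 4, then 0 and 20, then 0 and 9. The 8-array fit gave 21 for hypoxia in WT and 17 and 25 for the mutant lines against WT at 21% oxygen.

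Leaving out 1 array at a time gave 1 to 16, 3 to 30 and 4 to 21 for hypoxia, 0 to 12, 0 to 19 and 0 to 0 at 21% oxygen, 3 to 33 and 4 to 31 under hypoxia, and 1 to 29 and 1 to 11 for the response differences. In the 8-array fit it gave 14 to 19 for hypoxia in WT, 9 to 20 and 14 to 26 for the mutant lines against WT, and 0 to 4 between them. Alternatives to the 8-array fit were added after seeing the data: L858R against E746-E750 had 1 without background correction, 12 with median centring, 1 with the mean of probes and 4 with array weights; E746-E750 against WT had 14 with median centring; L858R against WT had 11 with the authors' values.

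Among the genes named for each comparison over 12 arrays, a called direction turned in 14 cases, all under another choice of probe. Outside these, the members' median for hypoxia in L858R, -0.07, was 0.20 without the first L858R hypoxic array. With the mean of a gene's probes, hypoxia in L858R gave -0.26 for FEN1 and -0.39 for PCNA, and hypoxia in E746-E750 gave -0.57 for PCNA. With the second brightest probe, PCNA gave -0.70, -1.54 and -1.87 for hypoxia in WT, L858R and E746-E750, and FEN1 -1.36 in L858R. Under hypoxia L858R against WT gave -0.80 for FEN1, -0.49 for PCNA and -0.95 for RFC3, and E746-E750 against WT gave -0.62 for FEN1, -0.61 for PCNA and 0.17 for RFC2; the RFC2 response difference in E746-E750 was 0.05. The members' medians moved by less than the replicate SD of 0.158 in 198 cases and by more in 26.

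Replicate numbers share no stated culture or day, and replicate deviations correlated between groups at -0.203 to 0.75, so the numbers were not taken as a pairing. With the replicate block the 12-array counts were 6, 10 and 8 for hypoxia, 0, 2 and 0 at 21% oxygen, 12 and 9 under hypoxia and 1 and 1 for the response differences; the 8-array counts were 20 for hypoxia in WT, and 14, 23 and 0 at 21% oxygen.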
